A study of Mus musculus with 12 samples.

Results

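The genes described here encode the TEAD transcription factors and the cofactors that bind them in mouse embryonic fibroblasts: Tead1, Tead2, Tead3, Tead4, Yap1, Wwtr1, Vgll2, Vgll3 and Vgll4. They were taken by gene symbol from a table of 32168 genes, in which all 9 were found. RNA-seq counts came from 12 libraries of fibroblasts cultured from embryos at E13.5 and used at passage 4 to 10. The cells were Lats1/2 double knockout (DKO) or wild type (WT), and received MGH-CP1 (CP1) at 1 µM in DMSO or DMSO alone, for 2 or 4 days. The 8 groups were DKO with CP1 for 2 or 4 days and DKO with DMSO for 2 or 4 days, and the same 4 for WT. Each CP1 group had 2 repeats and each DMSO group had 1 library. All cells therefore received DMSO. How the Lats alleles were deleted, and how many embryos or lines stand behind each genotype, is not given in the sources used here, so loss of LATS and another origin of the DKO cells cannot be told apart. The labels also do not say that repeats were separate cultures. The p-values below therefore rest on the scatter among these libraries alone, and that scatter may be technical.

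TEAD proteins bind DNA but activate transcription mainly through cofactors. YAP and TAZ, the product of Wwtr1, are the co-activators of the Hippo pathway: the kinases LATS1 and LATS2 phosphorylate them and keep them out of the nucleus. VGLL proteins bind TEADs through a short TONDU motif or a related one, and VGLL4 competes with YAP for TEAD. MGH-CP1 is an inhibitor of TEAD palmitoylation, a lipid modification of the pocket in the TEAD domain that binds YAP and TAZ. mRNA levels, as measured here, say nothing of the phosphorylation, location or palmitoylation of these proteins.

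Depth ran from 16970834 to 25299262 counts per library. The genotype labels were checked on the deleted genes. Lats1 was at 35.5 to 40.6 counts scaled to library size (CPM) in DKO CP1, 16.2 and 25.2 CPM in DKO DMSO, 94.0 to 107 CPM in WT CP1 and 117 and 111 CPM in WT DMSO. Within DKO its CP1 libraries thus lay above both DMSO libraries (log2 fold change 0.92, SE 0.11; edgeR adjusted p = 1.96e-05). Lats2 was at 16.6 to 19.6 CPM in DKO, against 48.4 to 65.7 CPM in WT, so neither gene overlapped between genotypes and neither was at 0. Of 10 fibroblast markers, 9 were lower and 1 (Vim, 0.52) higher in DKO than in WT in DMSO, with a median log2 fold change of -2.09. Dcn (-9.45), Col3a1 (-6.96) and Pdgfra (-3.03) were among the lower ones, and Thy1 was at 0 counts in both DKO DMSO libraries. Under CP1 in DKO 9 of the 10 were higher and Vim lower, with a median of 1.46. These shifts lie between the same libraries as the changes of Tead4, Vgll4 and Tead2 given below. The summed level of the 10 markers was 13876 to 17438 CPM in DKO CP1, 10030 to 10538 CPM in DKO DMSO, 16494 to 22971 CPM in WT CP1 and 25140 to 25543 CPM in WT DMSO. Among markers of other cells, the summed level in any library stayed at or below 12.1 CPM for epithelium, 14.9 CPM for macrophages, 71.9 CPM for endothelium and 7.33 CPM for skeletal muscle, and reached 324 CPM for neural markers. The part of cell composition in the results was not tested, and in bulk RNA fewer cells of a type and less RNA per cell cannot be told apart. The 2 DKO DMSO libraries stood far apart, with a chi-square of 43.9 per degree of freedom between their counts, against 1.95 for the 2 WT DMSO libraries. Each DMSO pair spans both days, so day and library are mixed in it, unlike in the pairs of CP1 repeats. The 2 WT CP1 2-day repeats also stood apart, at 50.8, while the other 3 pairs of repeats gave 2.25 to 5.84. Ribosomal and microRNA genes took 3.08% of counts in the first of the 2 WT CP1 2-day repeats and 0.0424% in the second. They took 0.279% and 0.188% in the 2 DKO DMSO libraries. Their part in these chi-squares was not tested. Values are therefore given library by library.

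The promoters of these genes are shown because several hold the hexamer that TEADs recognise. RefSeq promoter windows (GRCm38.p6; 250 bases before to 50 after each start) were found for 7 of the 9 genes, leaving out Tead1 and Tead4. CATTCC, or GGAATG on the other strand, was in the windows of 5 of these 7 genes. It was in those of 6 of 14 genes of a list of YAP/TAZ-TEAD targets, and of 16.6% of 27025 genes. Tead3 held 4 matches over 3 overlapping windows, and Yap1, Wwtr1, Vgll3 and Vgll4 held 1 each. The windows of Tead2 and Vgll2 held none. The sequences are written 5′ to 3′ on the strand of the gene, with the hexamers in capitals.
Tead3, chr17:28350970-28350999, minus strand: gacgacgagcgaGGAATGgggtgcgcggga
Tead3, chr17:28350706-28350735, minus strand: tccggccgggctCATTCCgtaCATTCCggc
Tead3, chr17:28350581-28350610, minus strand: aggtaagcccggGGAATGcaactcggaggc
Yap1, chr9:8004720-8004749, minus strand: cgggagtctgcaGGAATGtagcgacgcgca
Wwtr1, chr3:57576029-57576058, minus strand: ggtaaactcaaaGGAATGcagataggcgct
Vgll3, chr16:65815114-65815143, plus strand: cccgcctccccaCATTCCggctaccctgcc
Vgll4, chr6:114969268-114969297, minus strand: cgagtggggtggGGAATGctgagaaatgcc
The Yap1 and Wwtr1 hexamers begin 141 and 136 bases before the annotated start, that of Vgll4 82 bases and that of Vgll3 63 bases before it. These are matches of letters, and no binding was measured.

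Of the 9 genes, 8 passed the filter on low counts and were tested. Vgll2, a VGLL gene known for its expression in skeletal muscle, had 2 reads in the DKO DMSO 4-day library and 0 reads in each of the other 11 libraries. A count of 0 allows up to 3 reads, or 0.115 to 0.175 CPM depending on the library, a limit that covers counting error only. Vgll2 lies on chromosome 10 at 52022502 to 52028471, plus strand, in mm10, the build of the deposited coordinates.

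Levels of different genes were compared as TPM, which counts reads per length of gene. Wwtr1 was the most abundant of the 9 in every library of the 4 combinations of genotype and treatment, averaging 157 TPM in DKO CP1, 142 TPM in DKO DMSO, 133 TPM in WT CP1 and 158 TPM in WT DMSO. Tead4 was the lowest of the 8 detected genes in each combination, at 18.1, 34.3, 12.4 and 17.1 TPM in the same order. In WT DMSO the order was Wwtr1, Yap1 (112 TPM), Vgll3 (108 TPM), Tead2 (96.7 TPM), Tead1 (70.5 TPM), Tead3 (47.1 TPM), Vgll4 (39.9 TPM) and Tead4. The neighbours Yap1 and Vgll3 overlapped there between libraries, and no other detected neighbours did. In DKO DMSO, Yap1 (83.7 TPM), Vgll3 (80.5 TPM), Tead1 (66.9 TPM) and Vgll4 (66.6 TPM) stood close together, and each pair of neighbours among these 4 overlapped. In DKO CP1 only Vgll3 (84.3 TPM) and Yap1 (82.5 TPM) overlapped as neighbours, and in WT CP1 Tead2 (87.1 TPM), Yap1 (86.8 TPM), Vgll3 (77.6 TPM) and Tead1 (68.4 TPM) overlapped in turn. Ribosomal and microRNA genes took 23.7% to 25.6% of TPM in 3 of the 4 WT CP1 libraries, 0.514% in the other and 0.467% to 5.06% in the remaining 8, which lowers every other TPM in those 3. Changes were therefore tested on counts scaled by TMM and are given in CPM.

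**Figure D1:**
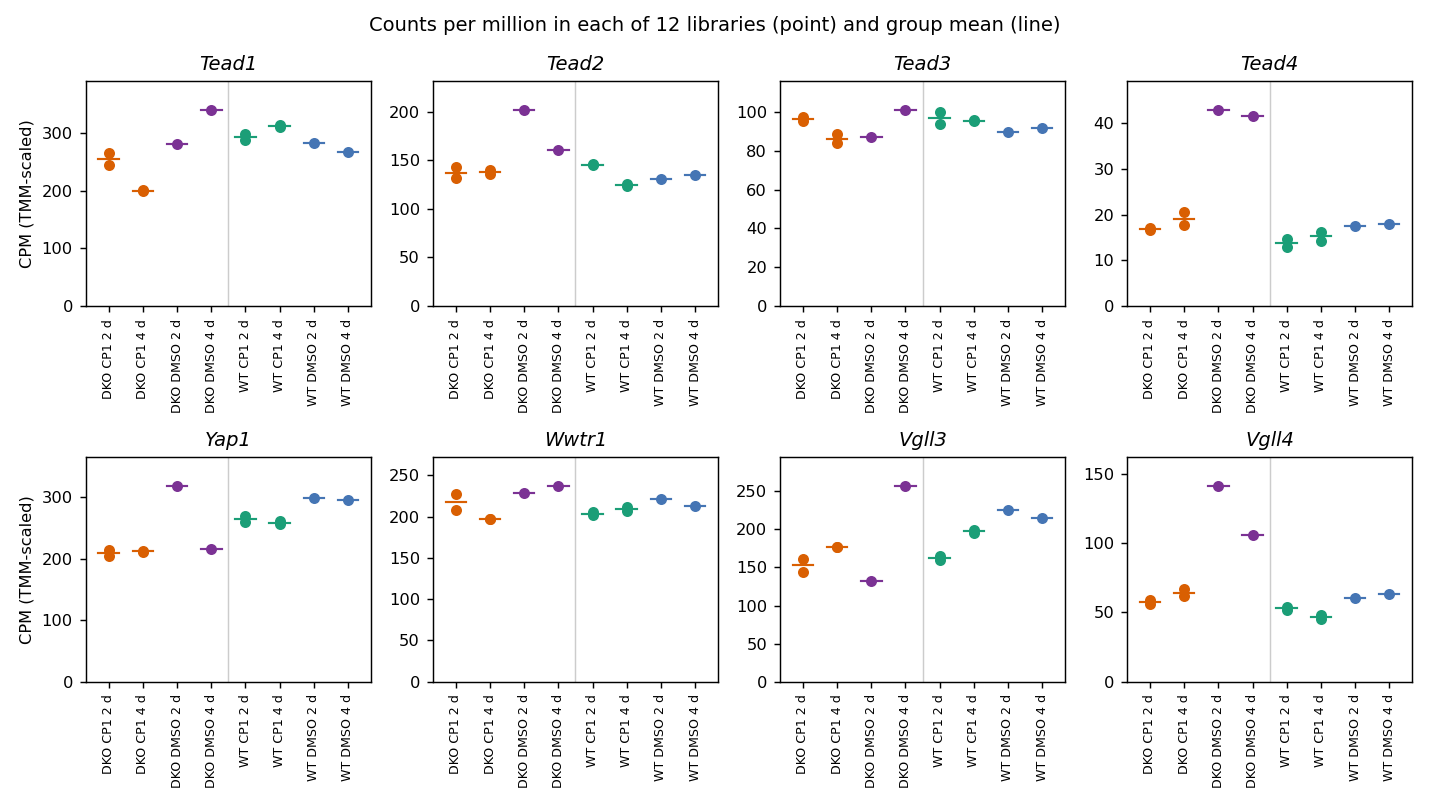
Level of each of the 8 detected genes (vertical axis, TMM-scaled CPM, starting at 0) in the 8 groups (horizontal axis); points are libraries and lines are group means, over 2 libraries for CP1 groups and 1 for DMSO groups. Tead4 and Vgll4 stand highest in the 2 DKO DMSO libraries, at 42.8 and 41.6 CPM for Tead4 and 141 and 106 CPM for Vgll4.

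DKO was first compared with WT in DMSO, with both days in 1 fit. Tead4, Vgll4 and Tead2 were higher in DKO, and none of the 8 tested genes was called lower. Over all 16595 tested genes, 32.7% were called higher and 34.8% lower (edgeR quasi-likelihood test, adjusted p under 0.05), so 3 of 8 higher is close to the background. Of all calls 48.4% were higher, against 34.7% on log2(TPM + 1). On that scale 2 members were higher (Tead4 and Vgll4) and 2 lower (Yap1 at -0.43 and Vgll3 at -0.50), and Tead2 did not pass (0.18). Library totals gave 3 higher and 1 lower, Yap1 at -0.28, and 8 group means gave 5 higher and 2 lower. The median absolute log2 fold change was 0.21 for the 8 genes and 0.80 for all tested genes, with Tead4 (1.26) and Vgll4 (0.99) above 0.80.

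CP1 was then compared with DMSO within each genotype. In DKO cells 5 of the 8 genes were called lower under CP1 (Tead1, Tead2, Tead4, Yap1 and Vgll4) and none higher, where 27.6% of all tested genes were called lower and 24.2% higher. Of all calls 46.7% were higher, but 68.9% with library totals as the scale and 79.8% on log2(TPM + 1). The median gene shifted there by 0.242 and 0.225, and 2 of 8 members were called on each scale. In WT cells 0 of 8 were called by edgeR, where 7.50% of all tested genes were called higher and 10.3% lower. Of all calls in WT 42.1% were higher, against 63.7% with library totals and 7.8% on log2(TPM + 1). At an unadjusted p under 0.05, 2 of 8 were lower in WT (Tead4 and Vgll4), where 4956 of all 16595 tested genes passed in either direction. DESeq2 called 0 of 8 at an adjusted p under 0.05, and 2779 of all genes. The edgeR fit above shares 1 estimate of the spread over both genotypes. With the WT libraries fitted alone, 5 of 8 were called. The WT count differed between fits: with 8 group means, or without either DKO DMSO library, 1 gene was higher (Tead1) and 4 were lower (Tead4, Yap1, Vgll3 and Vgll4), at nearly the same fold changes. In the test of the difference between the CP1 effects, DKO minus WT, 4 of 8 were lower (Tead1, Tead2, Tead4 and Vgll4) and none higher, where 22.3% and 20.1% of all genes were. Of all calls 47.5% were higher, against 59.9% with library totals, where 2 of 8 members passed (Tead4 and Vgll4), and 91.3% on log2(TPM + 1). On log2(TPM + 1), where the median of all genes stood at 0.377, the 4 calls were lost and Vgll3 was the 1 member called, higher at 0.62. Between genotypes under CP1, Tead4 and Vgll4 were higher in DKO and Tead1 and Yap1 lower, where 28.9% of all genes were higher and 30.6% lower; of all calls 48.6% were higher, against 69.4% on log2(TPM + 1). The DKO DMSO libraries enter both the genotype comparison in DMSO and the CP1 comparison in DKO, so opposite signs in these 2 are not separate observations.

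**Figure D2:**
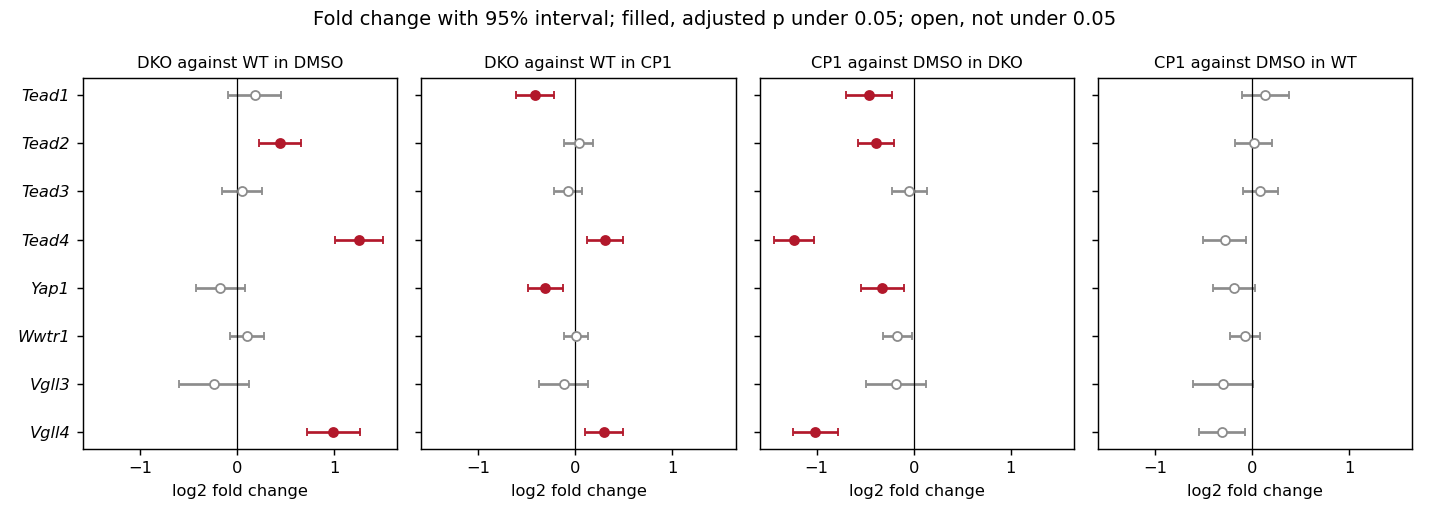
Log2 fold change (horizontal axis) of the 8 tested genes (rows) in 4 comparisons, with 95% intervals from the edgeR fit; filled red points passed an adjusted p of 0.05 and open grey ones did not. Tead4 and Vgll4 lie furthest right for DKO against WT in DMSO (1.26 and 0.99) and furthest left for CP1 against DMSO in DKO (-1.23 and -1.01).

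Among the TEAD genes, Tead4 (ENSMUSG00000030353.15; chromosome 6, 128224288 to 128300823, minus strand) changed most. It encodes the TEAD known for its need in the trophectoderm of the early embryo. It was at 16.6 and 17.1 CPM after 2 days and 20.5 and 17.7 CPM after 4 days in DKO CP1, and at 42.8 and 41.6 CPM in DKO DMSO. WT CP1 libraries had 14.6 and 13.0 CPM after 2 days and 14.3 and 16.3 CPM after 4 days, and WT DMSO libraries 17.4 and 17.96 CPM. The 2 DKO DMSO libraries were thus alike and stood above all 10 others. Fold changes and their errors are in log2 units. In DMSO the difference of DKO from WT was 1.26 (SE 0.12; edgeR adjusted p = 6.31e-07), a ratio of mean levels of 2.39. Under CP1 it fell by 1.23 in DKO (SE 0.10; edgeR adjusted p = 5.31e-07), and in WT its log2 fold change was -0.28 (SE 0.10; edgeR adjusted p = 0.077). The difference of the CP1 effects, DKO minus WT, was -0.95 (SE 0.14; edgeR adjusted p = 0.000189). On log2(TPM + 1) it was -0.45 and did not pass (limma adjusted p = 0.090), or -0.82 relative to the median of all genes. Under CP1 Tead4 stayed higher in DKO than in WT by 0.31 (SE 0.08; edgeR adjusted p = 0.00691), with 4 DKO libraries above 4 WT libraries. For DKO against WT in DMSO and for CP1 in DKO its call held in all 24 alternative settings, with log2 fold changes of 0.96 to 1.37 and -1.35 to -0.89.

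Tead2 (ENSMUSG00000030796.17; chromosome 7, 45215753 to 45233644, plus strand) encodes a TEAD expressed early in embryos and in neural progenitors. DKO CP1 libraries had 131 and 143 CPM after 2 days and 139.7 and 136 CPM after 4 days, and DKO DMSO libraries 201 CPM after 2 days and 161 CPM after 4 days. In WT CP1 there were 146 and 145 CPM after 2 days and 125 and 124 CPM after 4 days, and in WT DMSO 131 and 135 CPM. Both DKO DMSO libraries were above all others, and the remaining 10 overlapped. Tead2 was higher in DKO than in WT in DMSO by 0.44 (SE 0.10; edgeR adjusted p = 0.00162). Without the WT DMSO 2-day library it was 0.31 and did not pass (edgeR adjusted p = 0.056). CP1 lowered it in DKO, at -0.39 (SE 0.09; edgeR adjusted p = 0.00191), and the log2 fold change in WT was 0.02 (SE 0.09; edgeR adjusted p = 0.93). On library totals the CP1 effects in DKO of Tead2 (-0.16) and Tead1 (-0.24) did not pass. The CP1 effects differed by -0.41 (SE 0.12; edgeR adjusted p = 0.017), but by -0.28 without the WT DMSO 2-day library (edgeR adjusted p = 0.16). On log2(TPM + 1) the difference of CP1 effects turned to 0.09, while the median of all tested genes stood at 0.38 there.

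Tead1 (ENSMUSG00000055320.17; chromosome 7, 112679318 to 112906807, plus strand), widely expressed and needed for the embryonic heart in mice, was the TEAD with most reads per library. Its level was 265 and 244 CPM after 2 days and 199 and 200.5 CPM after 4 days in DKO CP1, and 281 CPM after 2 days and 339 CPM after 4 days in DKO DMSO. The WT CP1 libraries gave 298 and 287 CPM after 2 days and 314 and 309.8 CPM after 4 days, and WT DMSO libraries 282 and 267 CPM. All 4 DKO CP1 libraries lay below the other 8, and DKO and WT overlapped in DMSO. In DMSO the log2 fold change of DKO against WT was 0.18 (SE 0.13; edgeR adjusted p = 0.22). Without the DKO DMSO 2-day library, which leaves 1 DKO DMSO library and no repeat, it was 0.47. CP1 lowered Tead1 in DKO, at -0.46 (SE 0.11; edgeR adjusted p = 0.00315), but without the DKO DMSO 4-day library the value was -0.15 (edgeR adjusted p = 0.072). In WT the CP1 effect was 0.14 (SE 0.11; edgeR adjusted p = 0.46). The effects differed by -0.60 (SE 0.16; edgeR adjusted p = 0.00766), and by -0.52 without the WT DMSO 4-day library, which did not pass (edgeR adjusted p = 0.066). Under CP1, where each side has 4 libraries, Tead1 was lower in DKO than in WT, at -0.42 (SE 0.09; edgeR adjusted p = 0.0013). On log2(TPM + 1) that was -0.17 and did not pass (limma adjusted p = 0.24), or -0.36 relative to the median of all genes, and the difference of CP1 effects was -0.09.

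Tead3 (ENSMUSG00000002249.21; chromosome 17, 28331671 to 28350817, minus strand), a TEAD known from placenta and other tissues, varied little between libraries. It ran from 84.0 to 97.3 CPM in DKO CP1, was 87.1 CPM after 2 days and 101 CPM after 4 days in DKO DMSO, ran from 93.9 to 100.3 CPM in WT CP1, and was 89.96 and 91.6 CPM in WT DMSO. DKO and WT overlapped under both treatments. None of the 5 comparisons that average the days passed for Tead3, with log2 fold changes of 0.05 for DKO against WT in DMSO (95% interval -0.15 to 0.26), -0.08 for the same in CP1 (-0.22 to 0.07), -0.04 for CP1 in DKO (-0.22 to 0.13), 0.09 for CP1 in WT (-0.09 to 0.26) and -0.13 for the difference of CP1 effects (-0.38 to 0.12). Without the DKO DMSO 2-day library, 3 of these passed, at 0.23 for DKO against WT in DMSO, -0.23 for CP1 in DKO and -0.31 for the difference (edgeR adjusted p = 0.012, 0.011 and 0.00538).

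The make-up of TEAD mRNA was computed within each library, where the TPM scale cancels. Tead4 made up 7.82% ± 1.02 of summed Tead TPM in DKO CP1 (SD, n = 4), 13.6% in both DKO DMSO libraries, 5.88% ± 0.64 in WT CP1 (SD, n = 4) and 7.29% and 7.51% in the 2 WT DMSO libraries. The Tead4 share in DKO DMSO thus lay above that of every other library, whose highest was 9.18%. Tead2 was the largest share everywhere, at 41.7% to 47.0% in DKO CP1, 48.0% and 39.5% in DKO DMSO after 2 and 4 days, 38.3% to 43.2% in WT CP1 and 41.2% and 42.4% in WT DMSO. Tead1 held 23.7% to 29.7% in DKO CP1, 23.7% and 29.3% in DKO DMSO, 30.3% to 34.3% in WT CP1 and 31.3% and 29.6% in WT DMSO. Tead3 held 20.1% to 21.6% in DKO CP1, 14.8% and 17.7% in DKO DMSO, 19.8% to 21.4% in WT CP1 and 20.2% and 20.5% in WT DMSO. No test was made on these shares. The shares and the order of genes by TPM rest on the deposited gene lengths, 13570 bases for Tead1 and 4788 bases for Tead2. The lengths of the transcripts present in these cells were not measured.

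**Figure D3:**
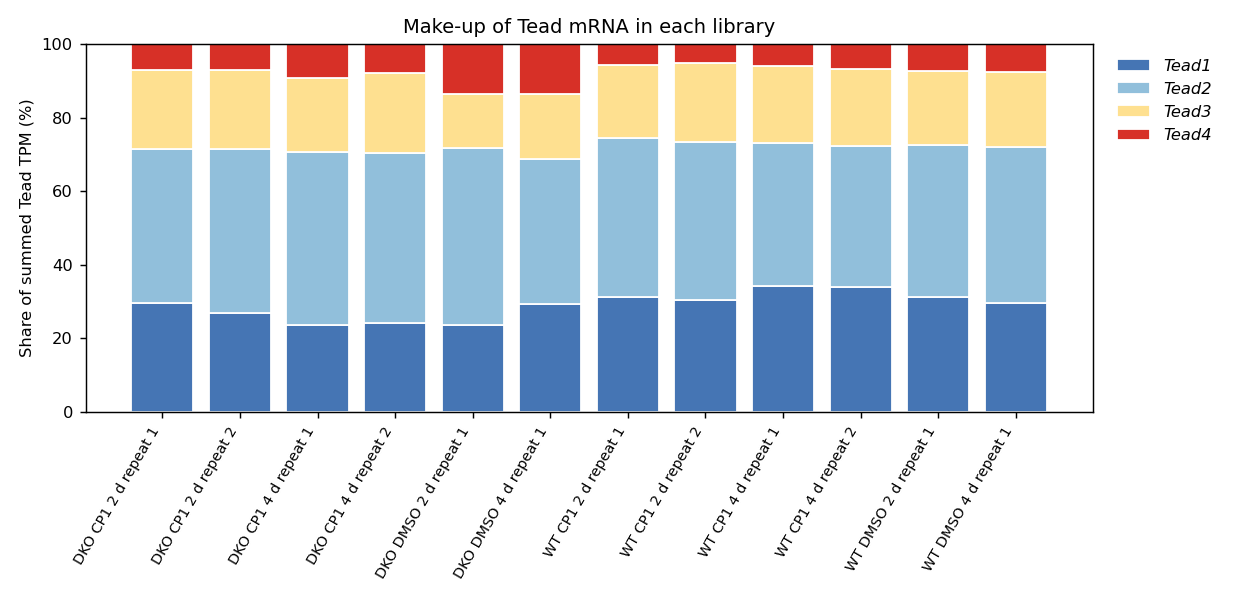
Share of summed Tead TPM (vertical axis, percent) held by Tead1, Tead2, Tead3 and Tead4 in each of the 12 libraries (bars). The Tead4 segment is 13.6% in both DKO DMSO libraries and 5.16% to 9.18% in the other 10.

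Of the co-activators, Yap1 (ENSMUSG00000053110.13; chromosome 9, 7931999 to 8004596, minus strand) differed between the DKO DMSO libraries. DKO CP1 libraries had 204 and 213 CPM after 2 days and 211 and 213 CPM after 4 days, and DKO DMSO libraries 318 CPM after 2 days and 215 CPM after 4 days. WT cells under CP1 had 269 and 259 CPM after 2 days and 261 and 256 CPM after 4 days, and WT DMSO libraries 299 and 296 CPM. The 4-day DKO DMSO library lay next to the DKO CP1 libraries and the 2-day one above every other library. In DMSO the log2 fold change of DKO against WT was -0.17 (SE 0.12; edgeR adjusted p = 0.21). It was -0.48 without the DKO DMSO 2-day library, which leaves 1 DKO DMSO library. The CP1 effect in DKO was -0.32 (SE 0.10; edgeR adjusted p = 0.017). It rested on 1 library: without the DKO DMSO 2-day library it was -0.02 (edgeR adjusted p = 0.83). On library totals it was -0.10 (edgeR adjusted p = 0.39). Leaving out either DKO CP1 2-day repeat also ended the call, at -0.26 and -0.29. Between genotypes under CP1 Yap1 was lower in DKO, at -0.31 (SE 0.08; edgeR adjusted p = 0.00619), with 4 DKO libraries below 4 WT libraries. On log2(TPM + 1) that was -0.06 and did not pass (limma adjusted p = 0.67), or -0.25 relative to the median of all genes. In WT the CP1 effect was -0.19 (SE 0.10; edgeR adjusted p = 0.24), with all 4 CP1 libraries below both DMSO libraries.

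Wwtr1 (ENSMUSG00000027803.14; chromosome 3, 57455649 to 57575910, minus strand), the gene of TAZ, varied least of the co-activators. It had 208 and 228 CPM after 2 days and 197 and 197 CPM after 4 days in DKO CP1, and 228 and 237 CPM in DKO DMSO. In WT CP1 the levels were 201, 205, 207 and 212 CPM, and in WT DMSO they were 221 and 213 CPM. DKO CP1 and WT CP1 overlapped. The log2 fold change was 0.10 for DKO against WT in DMSO (95% interval -0.08 to 0.28), 0.01 for the same in CP1 (-0.12 to 0.13), -0.17 for CP1 in DKO (-0.32 to -0.02; edgeR adjusted p = 0.060) and -0.07 for CP1 in WT (-0.23 to 0.08). With the DKO DMSO 2-day library left out, 1 DKO DMSO library remains. Then 2 of these moved, to 0.20 for DKO against WT in DMSO and -0.27 for CP1 in DKO. Without the second DKO CP1 2-day repeat the CP1 effect in DKO passed, at -0.21. The ratio of Wwtr1 to Yap1 TPM was 1.79 to 2.07 in DKO CP1, 1.39 after 2 days and 2.13 after 4 days in DKO DMSO, 1.45 to 1.60 in WT CP1 and 1.43 and 1.40 in WT DMSO. The 4 DKO CP1 ratios all exceeded the 4 WT CP1 ratios.

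Of the VGLL cofactors, Vgll4 (ENSMUSG00000030315.15; chromosome 6, 114860628 to 114969994, minus strand), whose protein competes with YAP, was highest in the same libraries as Tead4. It had 56.1 and 59.2 CPM after 2 days and 67.0 and 61.5 CPM after 4 days in DKO CP1, and 141 CPM after 2 days and 106 CPM after 4 days in DKO DMSO. For WT CP1 the values were 54.0 and 52.0 CPM after 2 days and 48.3 and 45.2 CPM after 4 days, and in WT DMSO 60.6 and 63.1 CPM. Both DKO DMSO libraries stood above all others, and DKO CP1 overlapped with WT DMSO. In DMSO Vgll4 was higher in DKO than in WT by 0.99 (SE 0.13; edgeR adjusted p = 1.5e-05), a ratio of means of 2.00. CP1 lowered it in DKO, at -1.01 (SE 0.11; edgeR adjusted p = 6.72e-06). In WT the log2 fold change was -0.31 (SE 0.11; edgeR adjusted p = 0.068), with all 4 CP1 libraries below both DMSO libraries. The difference of CP1 effects was -0.70 (SE 0.16; edgeR adjusted p = 0.00319). On log2(TPM + 1) it was -0.20 and did not pass (limma adjusted p = 0.50), or -0.57 relative to the median of all genes. Under CP1 Vgll4 was higher in DKO than in WT by 0.29 (SE 0.09; edgeR adjusted p = 0.014), which was lost without the second WT CP1 4-day repeat (0.25, edgeR adjusted p = 0.056) or the first DKO CP1 4-day repeat (0.23, edgeR adjusted p = 0.060). Set against the TEADs it binds, Vgll4 TPM was 0.158 to 0.200 of summed Tead TPM in DKO CP1, 0.298 and 0.231 in DKO DMSO, 0.124 to 0.142 in WT CP1 and 0.169 and 0.176 in WT DMSO.

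Vgll3 (ENSMUSG00000091243.2; chromosome 16, 65815257 to 65866368, plus strand), a VGLL cofactor studied in adipocytes, muscle and fibroblasts, gave values that differed between the libraries of the 2 days. In DMSO each day has 1 library per genotype, so day and library cannot be told apart there. DKO CP1 libraries had 161 and 144 CPM after 2 days and 177 and 177 CPM after 4 days, and DKO DMSO libraries 132 CPM after 2 days and 257 CPM after 4 days. WT CP1 gave 159 and 165 CPM after 2 days and 199 and 195 CPM after 4 days, and WT DMSO libraries 225 and 214 CPM. The DKO DMSO libraries were the lowest and the highest of all 12. Averaged over days, no comparison passed for Vgll3, with log2 fold changes of -0.24 for DKO against WT in DMSO (95% interval -0.60 to 0.12), -0.12 for the same in CP1 (-0.37 to 0.13), -0.18 for CP1 in DKO (-0.49 to 0.13) and -0.30 for CP1 in WT (-0.61 to 0.01). Without the DKO DMSO 4-day library the first of these was -0.63, and without the 2-day one CP1 in DKO was -0.54. Each of these fits leaves 1 DKO DMSO library.

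The days were then taken apart, with 8 group means in 1 fit. At each day 2 CP1 libraries stand against 1 DMSO library, which is assumed to vary like the groups with repeats. For CP1 in DKO, 6 of 8 genes were called at 2 days (56.2% of all tested genes) and 7 of 8 at 4 days (48.6%). For CP1 in WT, 2 of 8 were called at 2 days (25.5%) and 3 of 8 at 4 days (25.3%). For DKO against WT in CP1, with 2 libraries on each side, 3 of 8 were called at 2 days, and 10269 of all 16595 genes. At 4 days 7 of 8 were called, and 9990 of all genes. Vgll4 was at 0.12 after 2 days (edgeR adjusted p = 0.098) and 0.46 after 4 days, and Tead1 at -0.20 and -0.64. Tead4 was at 0.29 and 0.33, and Yap1 at -0.34 and -0.28. For DKO against WT in DMSO each day has 1 library on each side. Its calls by day are not read as a result.

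**Figure D4:**
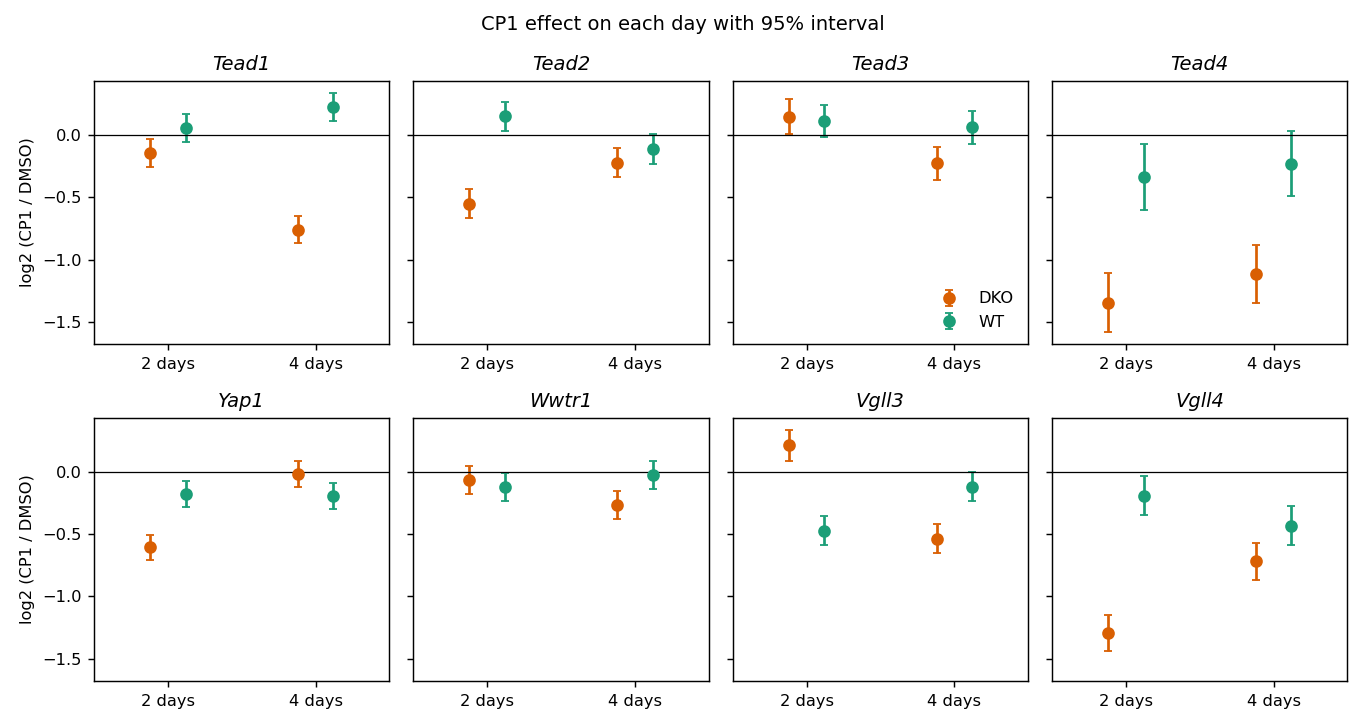
CP1 effect (vertical axis, log2 of CP1 over DMSO) after 2 and 4 days (horizontal axis) in DKO (orange) and WT (green) for the 8 tested genes, with 95% intervals from the edgeR fit of 8 group means. In DKO the Vgll3 effect lies at 0.21 after 2 days and -0.54 after 4 days, and that of Yap1 at -0.61 and -0.02.

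Tead4 and Vgll4 fell under CP1 in DKO on both days, Tead4 at -1.35 after 2 days and -1.12 after 4 days, and Vgll4 at -1.29 and -0.72. Tead2 followed, at -0.55 after 2 days and -0.22 after 4 days, and Tead1 at -0.15 and -0.76. Yap1 was lower after 2 days, at -0.61 (edgeR adjusted p = 3.65e-11), with -0.02 after 4 days (edgeR adjusted p = 0.78). Vgll3 was higher under CP1 after 2 days, at 0.21 (edgeR adjusted p = 0.00452), and lower after 4 days, at -0.54 (edgeR adjusted p = 9.39e-09). Tead3 and Wwtr1 were lower after 4 days, at -0.23 and -0.27, where the values after 2 days were 0.15 and -0.07 and did not pass.

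The difference of the CP1 effect between days, 4 minus 2, was tested for each genotype after these values had been seen. In DKO it was positive for 3 of 8 genes, where 13.8% of all genes were, and negative for 3, where 13.6% were. It was positive for Yap1 (0.59), Vgll4 (0.57) and Tead2 (0.33), and negative for Vgll3 (-0.75), Tead1 (-0.62) and Tead3 (-0.37). In WT it was positive for Vgll3 alone (0.35, SE 0.08; edgeR adjusted p = 0.00972) and negative for none, where 0.940% and 2.42% of all genes were. That call was lost without either WT CP1 2-day repeat (0.33 and 0.38) or the first 4-day repeat (0.34). Each of these rests on 1 DMSO library per day, and on all 3 log2 TPM scales tried limma called 0 of them. The values on log2(TPM + 1) kept their signs in DKO, with Vgll3 at -0.79 and Yap1 at 0.53.

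In WT, Yap1 was lower under CP1, at -0.18 after 2 days and -0.19 after 4 days, each against 1 DMSO library. In the fit of both days it was -0.19 and did not pass (edgeR adjusted p = 0.24). In that fit Vgll3 (-0.30), Vgll4 (-0.31) and Tead1 (0.14) did not pass either. Vgll3 was lower, at -0.47 after 2 days (edgeR adjusted p = 2.73e-07), with -0.12 after 4 days (edgeR adjusted p = 0.13). Vgll4 was lower, at -0.43 after 4 days (edgeR adjusted p = 6.8e-05), with -0.19 after 2 days (edgeR adjusted p = 0.064), and Tead1 was higher by 0.22 after 4 days (edgeR adjusted p = 0.00238). In DMSO, with 1 library on each side and no repeat, Vgll3 was at 132 CPM in DKO and 225 CPM in WT after 2 days, and at 257 CPM in DKO and 214 CPM in WT after 4 days.

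Within CP1, where both days have 2 repeats, day 4 was compared with day 2. In DKO 1 of 8 genes was higher and 3 lower, where 12.1% and 12.05% of all genes were. The value for Vgll3 was 0.21, higher on day 4 (SE 0.05; edgeR adjusted p = 0.00169), and Tead1 was lower, at -0.35 (SE 0.04; edgeR adjusted p = 1.86e-06). Tead3 (-0.16) and Wwtr1 (-0.15) were lower too, with edgeR adjusted p = 0.028 and 0.017. The Tead3 call was lost without the second DKO CP1 2-day repeat (-0.15) or the first 4-day repeat (-0.12), and that of Wwtr1 without the second 2-day repeat (-0.08) or either 4-day repeat (-0.15 each).

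In WT 1 gene was higher on day 4 under CP1 and 2 were lower, where 6.996% and 8.26% of all genes were. The value for Vgll3 was 0.28, higher on day 4 (SE 0.05; edgeR adjusted p = 9.54e-05). Tead2 was lower, at -0.22 (SE 0.05; edgeR adjusted p = 0.00117). Vgll4 was lower, at -0.18 (SE 0.06; edgeR adjusted p = 0.046), just past the threshold. That call was lost without any one of the 4 WT CP1 libraries (-0.13 to -0.23), and also without either DKO CP1 4-day repeat or any one of the 4 DMSO libraries, at -0.18 in each. Vgll3 was thus higher on day 4 than on day 2 under CP1 in both genotypes. Whether its day change differed between genotypes was not tested.

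Other genes of the pathway were summarised from lists, naming up to 2 called genes of each list with the smallest p. For each list the shares of all tested genes called higher and lower give the background: 32.7% and 34.8% for DKO against WT in DMSO, 28.9% and 30.6% in CP1, 24.2% and 27.6% for CP1 in DKO, 7.50% and 10.3% for CP1 in WT, and 20.1% and 22.3% for the difference of CP1 effects. For day under CP1 they were 12.1% and 12.05% in DKO and 6.996% and 8.26% in WT, and for the change of the CP1 effect between days 13.8% and 13.6% in DKO and 0.940% and 2.42% in WT. Among 31 Hippo kinases and upstream regulators, DKO cells in DMSO had 11 genes above WT and 11 below, with a median log2 fold change of -0.02 against -0.06 for all tested genes. First came Dchs1, a protocadherin ligand of FAT4, at -6.06 (0.989 and 0.643 CPM in DKO DMSO against 57.8 and 51.7 CPM in WT DMSO), and Wwc1, the scaffold KIBRA, at 3.13. Under CP1, 9 were above WT and 14 below, led by Dchs1 (-4.37) and the angiomotin Amotl2 (1.73). CP1 raised 7 and lowered 12 in DKO, led by Wwc1 (-1.44) and Ppp2r1a, a scaffold subunit of the phosphatase PP2A (-0.82). In WT it raised 1 and lowered 7, led by the adaptor Sav1 (-0.50) and Amotl2 (-0.43). The difference of CP1 effects was positive for 7 and negative for 11, led by Ppp2r1a (-0.84) and Wwc1 (-1.12). On day 4 against day 2 under CP1, 7 were higher and 4 lower in DKO, led by the protocadherin Fat4 (0.48) and Frmd6 (-0.21), and 4 were higher and 3 lower in WT, led by Fat4 (-0.24) and the kinase Taok1 (0.24). The CP1 effect at 4 days minus that at 2 days was positive for 13 and negative for 5 in DKO, led by Taok1 (-1.91) and the kinase activator Mob1b (-1.57).

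Of 21 targets of YAP, TAZ and TEAD, DKO cells in DMSO had 14 above WT and 3 below, where 32.7% and 34.8% of all tested genes were, with a median log2 fold change of 0.78. Amotl2 (2.01) and the ankyrin-repeat gene Ankrd1 (5.31) came first. Under CP1, 15 were above WT and 3 below (28.9% and 30.6% of all genes), led by Amotl2 (1.73) and Ankrd1 (5.12). CP1 lowered 14 and raised 3 in DKO (27.6% and 24.2% of all genes), led by Ankrd1 (-1.64) and the receptor kinase Axl (-0.97), with a median of -0.48. In WT it lowered 10 and raised 0 (10.3% and 7.50% of all genes), led by the tissue factor gene F3 (-0.65) and Axl (-0.61), with a median of -0.43.

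The difference of CP1 effects, DKO minus WT, was positive for 3 targets and negative for 7. The first by p were Crim1 (-0.80) and Igfbp3, which encodes a binding protein of insulin-like growth factors, at 5.34 (SE 0.59; edgeR adjusted p = 0.000218). Igfbp3 was at 3.95 and 5.92 CPM after 2 days and 9.84 and 11.9 CPM after 4 days in DKO CP1, and at 0.757 and 0.234 CPM in DKO DMSO. It was at 172 and 164 CPM after 2 days and 275 and 283 CPM after 4 days in WT CP1, and at 582 and 555 CPM in WT DMSO. Its libraries were thus higher under CP1 in DKO and lower under CP1 in WT, with no overlap in either, and all DKO libraries lay far below all WT libraries. On day 4 against day 2 under CP1, 4 targets were higher and 5 lower in DKO, led by Ccdc80 (-0.45) and Asap1 (-0.36), and 6 were higher and 2 lower in WT, led by Ccdc80 (-0.79) and the matricellular gene Ccn2 (0.62). The CP1 effect at 4 days minus that at 2 days was positive for 6 and negative for 5 in DKO, led by the phosphatase gene Ptpn14 (0.68) and Asap1 (-0.53), and positive for 3 and negative for 1 in WT, led by Ccdc80 (-0.78) and Igfbp3 (0.80).

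The list of enzymes of palmitoylation held 3 genes. Zdhhc7, a palmitoyltransferase, was at 48.9 to 55.6 CPM in DKO CP1, 69.1 and 57.5 CPM in DKO DMSO, 42.3 to 44.1 CPM in WT CP1 and 42.1 and 43.8 CPM in WT DMSO. Both DKO DMSO libraries were above all others. In DMSO the difference of DKO from WT was 0.56 for Zdhhc7 and -0.67 for the thioesterase gene Lypla1 (edgeR adjusted p = 0.000215 and 7.68e-05), and 0.42 for the related Lypla2 (edgeR adjusted p = 0.000264). Under CP1 it was 0.27 for Zdhhc7 and -0.67 for Lypla1 (edgeR adjusted p = 0.00461 and 3.98e-06). CP1 lowered Lypla2 (-0.36) and Zdhhc7 (-0.29) in DKO (edgeR adjusted p = 0.000527 and 0.012). The CP1 effects differed for Lypla2 (-0.30; edgeR adjusted p = 0.022). In DKO the CP1 effect at 4 days minus that at 2 days passed for Zdhhc7 (0.37; edgeR adjusted p = 0.016).

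The genes whose log2 CPM followed each member most closely over the 12 libraries were found among 10548 genes. For Tead4 they were Tmod3 (Pearson's r 0.991) and Psma7 (0.990), for Vgll4 Pcsk6 (0.988) and Ddr1 (0.984), for Yap1 Rpn1 (0.968) and Mkrn1 (0.959), and for Tead2 Scrn1 (0.957) and Atrnl1 (0.955). For Tead1 they were Fmc1 (0.935) and Glis2 (0.930), for Wwtr1 Trappc5 (0.926) and Cdt1 (0.907), for Vgll3 Selenot (0.916) and Tmed5 (0.900), and for Tead3 Zc3h14 (0.885) and Dvl3 (0.854). These are the highest of many values over 12 points that share groups and libraries, and are descriptions only. With Spearman's rho the first gene was another one for 7 of the 8, and Zc3h14 again for Tead3. Among the members themselves the highest was between Tead4 and Vgll4, at 0.956 over all 12 libraries, 0.974 over the 6 DKO and 0.526 over the 6 WT libraries.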

How the data were processed

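RNA-seq of total RNA from 12 fibroblast libraries was used. Per the submitters' processing notes, reads were counted per gene with featureCounts 1.5.2 on mm10; aligner and strand setting are not given in the sources used here. The deposited counts are whole numbers and not normalized. The authors' TPM equal these counts over gene length, rescaled per library, as a check of the deposited tables showed. Groups came from sample titles; the day of WT DMSO rests on titles and column names. Exons of Tead2 and Cd37 share 13 bases and those of Yap1 and Gm20416 share 116 on opposite strands, where without strand reads cannot be told apart (Cd37 had at most 26 counts and Gm20416 at most 5).

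Counts were scaled by TMM and tested two-sided in edgeR 4.0.16 under R 4.3.3 (glmQLFit with robust dispersions, then glmQLFTest) over 16595 genes kept at a minimum count of 10 (total 15); p-values were adjusted by Benjamini and Hochberg over all of them, with a threshold of 0.05. Genotype and treatment were compared in a model of 6 coefficients, 4 means plus 1 day term for each genotype centred between the days, and days with 8 group means. CPM are counts over TMM-scaled totals. Pairing by repeat number was checked and is not used. Alternatives used DESeq2 1.42.0, limma 3.58.1 on log2 TPM with a pseudocount of 1 or 0.1, other scalings, no filter, fewer samples, and each library left out. The pipelines were run on simulated data with 200 changed genes, where both directions were drawn alike and limma used log2 CPM. A change of most genes, a one-sided shift and the log2 TPM scale were therefore not tested.

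All 9 members are named, with the 2 genes most correlated with each member (mean log2 CPM of at least 2; predicted genes passed over), up to 2 called genes per list and comparison with the smallest p, and Lats1 and Lats2. The members, lists and tests were chosen with earlier results of these data known, and all 3 lists count their members beside all genes without a test. Hexamers were searched on both strands of the RefSeq promoter table.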

Additional observations from a re-analysis of the deposited data

Results flagged for a closer look

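The CP1 effect differed between DKO and WT, by the test of the difference itself (edgeR, DKO minus WT), for Tead4 (-0.95), Vgll4 (-0.70), Tead1 (-0.60) and Tead2 (-0.41). For each of these 4 genes all 4 DKO CP1 libraries were lower than both DKO DMSO libraries. So they were for Yap1 and Wwtr1, whose differences did not pass. How many of all tested genes were so separated was not counted. With library totals the differences of Tead1 (-0.47) and Tead2 (-0.27) did not pass. On all 3 log2 TPM scales none of the 4 passed; on log2(TPM + 1) the values were -0.45 for Tead4, -0.20 for Vgll4, -0.09 for Tead1 and 0.09 for Tead2, and Vgll3 was called higher (0.62).

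The CP1 effect differed between days in DKO (4 days minus 2 days, edgeR) for Vgll3 (-0.75), Tead1 (-0.62), Yap1 (0.59), Vgll4 (0.57), Tead3 (-0.37) and Tead2 (0.33), and in WT for Vgll3 (0.35). On each day 2 CP1 libraries were compared with 1 DMSO library. The 2 DKO DMSO libraries differed by a chi-square of 43.9 per degree of freedom. Each difference of effects is the day change under CP1 less that between the 2 single DMSO libraries. In DKO the day change under CP1 was 0.02 for Yap1, 0.0055 for Tead2, 0.16 for Vgll4 and 0.21 for Vgll3. It was -0.35 for Tead1 and -0.16 for Tead3, and in WT it was 0.28 for Vgll3. Why the 2 DKO DMSO libraries differed was not tested. Dixon's test of the 4 CP1 libraries of each genotype, which pools 2 days and can mark only an extreme library at this size, marked none of the 8 detected genes. Yap1 in DKO CP1 came closest, with a ratio of 0.804 against a critical value of 0.829.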

How the results depend on the processing

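With library totals in place of TMM, 2 members were called for CP1 in DKO and 2 for the difference of CP1 effects (Tead4 and Vgll4 in both), where the main counts were 5 and 4. DESeq2 called 2 members and 2133 genes for day in DKO, 1203 genes for day in WT, and 0 members and 285 genes for the change of the CP1 effect between days in WT, against 4012, 2532 and 557 genes by edgeR. With no filter, 2 members (Vgll3 and Vgll4) were called for CP1 in WT.

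With limma on log2(TPM + 1), 2 members were called between genotypes in CP1, 2 for CP1 in DKO, 2 for CP1 in WT (1853 genes) and 1 for the difference of CP1 effects. For day it called 0 members and 769 genes in DKO and 0 and 602 in WT, and for the change of the CP1 effect between days 0 and 861 in DKO and 0 and 155 in WT. A pseudocount of 0.1 gave 2, 2, 1 (1626 genes) and 0 members in the first 4 of these, and 0 members with 680, 525, 1155 and 192 genes in the last 4. Without the filter the member counts were 2 between genotypes in CP1, 2 for CP1 in DKO (5440 genes) and 0 for the difference (4494 genes), with 1183 genes for CP1 in WT, and 0 members with 46, 10, 380 and 362 genes in the last 4. The difference for Tead2 turned to 0.0938, 0.0951 and 0.0938 on these 3 scales.

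With 8 group means, 7 members were called between genotypes in DMSO, where the main fit called 67.5% of all genes, and 5 for CP1 in WT (5987 genes). At 2 days alone 2 were called for CP1 in WT. At 4 days alone 7 were called between genotypes in CP1, where 9990 of all 16595 genes were. The count between genotypes in DMSO at 4 days alone, with 1 library on each side, also moved and is not read as a result. The count for CP1 in WT at 4 days is given above. Vgll3 changed sign by day, at 0.2097 for CP1 in DKO after 2 days, and after 4 days at 0.2604 between genotypes in DMSO and -0.4167 for the difference. With only the groups compared, 5 members and 5209 genes were called for CP1 in WT and 2 members for day in DKO. The cause of these changes was not tested.

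Leaving out 1 library at a time gave 2 to 7 members (9513 to 11205 genes) between genotypes in DMSO, 3 to 4 (8898 to 11505) in CP1, 4 to 7 (7446 to 8854) for CP1 in DKO, 0 to 5 (1248 to 5226) for CP1 in WT and 3 to 6 (5150 to 8335) for the difference. For day it gave 2 to 4 (2206 to 4403) in DKO and 2 to 4 (1179 to 3624) in WT. For the change of the CP1 effect between days it gave 6 to 7 (3878 to 5118) in DKO and 0 to 3 (307 to 1299) in WT. A lone DMSO library was assumed to vary like the other groups, and without it the change between days has no value. Over 1336 settings of single members in the other 7 comparisons, 1065 kept direction and side of the threshold, 90 lost a call, 79 gained one, 96 changed sign uncalled and 6 changed sign from or to a called value. Of the 6 calls for the change of the CP1 effect between days in DKO, all were lost on each of the 3 TPM scales.

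Same-numbered repeats deviated together by a correlation of -0.04 to 0.017 over all tested genes. With 2 libraries per group, this cannot show whether same-numbered libraries share a culture or a run. The labels only number the repeats, so the main fit does not pair the libraries. With the repeat number as a replicate block in the CP1 libraries, 11319 genes and 5 members were called between genotypes (11211 without it), 4343 and 4 for day in DKO (4029) and 2929 and 3 for day in WT (2569). The fit of the compared groups alone was not run for the difference, which uses all libraries.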
